A study of Mus musculus with 21 samples.

Results

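The Cre-dependent part of the cardiac tamoxifen response was measured as an interaction, the effect of tamoxifen in mice carrying an inducible Cre minus the effect of tamoxifen in wild-type mice. A positive interaction means that a gene rose more, or fell less, after tamoxifen in the Cre carriers. The contrast used the 15 of 21 arrays whose animals were injected on 4 consecutive days, assigned to groups by sample title. All groups were left ventricles of mice aged 9 to 13 weeks, taken 4 days after the injections. The group called MerCreMer 4 TAM was Tg(αMHC-MerCreMer) mice given tamoxifen intraperitoneally at 40 mg/kg (3 arrays), and MerCreMer 4 ctrl was mice with the same transgene given control injections (3 arrays). Wild type 4 TAM (3 arrays) and Wild type 4 ctrl (6 arrays) had no transgene and the same injections. The controls of the MerCreMer arm thus carried the transgene too, so that a constant effect of the transgene without tamoxifen cancels out of the contrast. Each of these groups of 3 arrays held 1 male (replicate 1) and 2 females, and Wild type 4 ctrl held 3 males and 3 females. The other 6 arrays, MerCreMer mice with 1 tamoxifen or 1 control injection (3 arrays each), were not used by the contrast and served as separate arrays in which its genes were looked up. RNA was hybridised to whole-transcript arrays and the values are log2 expression values, so that a difference of 1 is a 2-fold difference. The labels number the replicates without saying that each was a separate animal, so the p values measure the spread between these samples.

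MerCreMer is Cre recombinase, the enzyme that cuts and rejoins DNA at loxP sites, fused to mutated ligand-binding domains of the oestrogen receptor. The α-myosin heavy chain promoter limits its expression to cardiomyocytes. Tamoxifen binds the receptor domain and lets the enzyme enter the nucleus, and the same drug also acts on natural oestrogen receptors in every cell of the animal. Without a floxed gene, Cre has no intended target, though mouse genomes hold sequences that resemble loxP sites. A wild-type arm given tamoxifen measures the drug alone, which is why the difference between the arms is the quantity of interest.

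Of 11294 genes tested with limma and Benjamini-Hochberg adjustment, 528 had an interaction with an adjusted p under 0.05 (4.68%). Of these, 273 were higher (2.42%) and 255 lower (2.26%) in the Cre-dependent direction, and 62 and 91 of them differed by at least 2-fold (0.549% and 0.806%). Genes that pass this threshold are referred to as called. Values given for single MerCreMer 4 TAM arrays as interactions are that array's level minus the MerCreMer 4 ctrl mean and minus the mean wild-type effect. By that measure each of the 528 lay on the side of its interaction on all 3 arrays, as did 5459 of all 11294 genes. The choice of genes by the mean of these 3 arrays largely fixes this count and the next. For 469 of the 528 (4.15% of genes tested), these 3 arrays lay outside the range of all 12 other arrays, which held for 15.1% of all genes tested (10.1% above and 4.97% below). The genes nearest the threshold were Tmem127 (adjusted p = 0.0498) and Rap1gap (0.04999) inside it, and Daam1 (0.0501) and Cdc27 (0.0502) outside it.

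Before the genes, the quality of the arrays bears on every count. The MerCreMer 4 TAM arrays differed from each other far more than those of the other groups. Their mean variance per gene was 0.123 log2 units squared, against 0.0180 to 0.0228 in the other 3 groups, and their pairwise correlations ran from 0.917 to 0.974, against at least 0.982 elsewhere. Replicate 3 stood furthest from its group and showed the largest change of the 3 in 336 of the 528 called genes. The model used 1 spread for all groups, which is too narrow for MerCreMer 4 TAM and too wide for the wild-type comparison. The number of calls was 926 without MerCreMer 4 TAM replicate 1, 1768 without replicate 2 and 744 without replicate 3. It fell to 239, 319 and 248 without MerCreMer 4 ctrl replicates 1, 2 and 3, to 254, 263 and 223 without Wild type 4 TAM replicates 1, 2 and 3, and to between 301 and 431 without 1 Wild type 4 ctrl array. With each group weighted by its own variance (group weights below), 289 genes were called. The labels give no scan dates. A set of 13 bright probe sets without a gene read 10.59 to 10.66 on 4 of the 6 MerCreMer arrays and 10.38 or less on the other 2 and on all wild-type arrays, and with that split as a block, chosen after seeing the data, 609 genes were called, 514 of the 528 among them. A stable set of 137 genes (1.21% of those tested; 53 higher, 0.469%, and 84 lower, 0.744%) was called in all 15 fits that left out 1 array and also with group weights. That set was chosen after the results were seen, and the genes described first belong to it. Other called genes whose interaction is given below carry a mark of their stability. It is the number of these 15 fits that kept the call ("kept in N of 15"), the adjusted p with group weights, or both.

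The wild-type arm held few calls. No gene was called between Wild type 4 TAM and Wild type 4 ctrl by limma (0 of 11294), where 269 genes (2.38%) had an unadjusted p under 0.05. With group weights 5 genes were called and 975 had an unadjusted p under 0.05, and with array weights the numbers were 6 and 1390. In females alone 2 genes were called, and without Wild type 4 ctrl replicate 1 there was 1. The MerCreMer arm held 1953 calls (17.3%), 1193 higher (10.6%) and 760 lower (6.73%). A second quantile normalisation turned that balance to 954 higher and 1025 lower. The standard deviation of the effects over all genes was 0.37 in the MerCreMer arm and 0.11 in the wild-type arm. Across genes the 2 effects, which share no arrays, had a correlation of 0.049, a description without a test since genes are not independent replicates. Among the called genes the median size of the effect was 0.72 in MerCreMer and 0.07 in wild-type mice, and the MerCreMer effect was the larger in 521 of 528, which the choice of genes by the difference of these effects largely fixes. Over all genes the medians were 0.18 and 0.06, and the MerCreMer effect was the larger in 8926 of 11294.

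**Figure D1:**
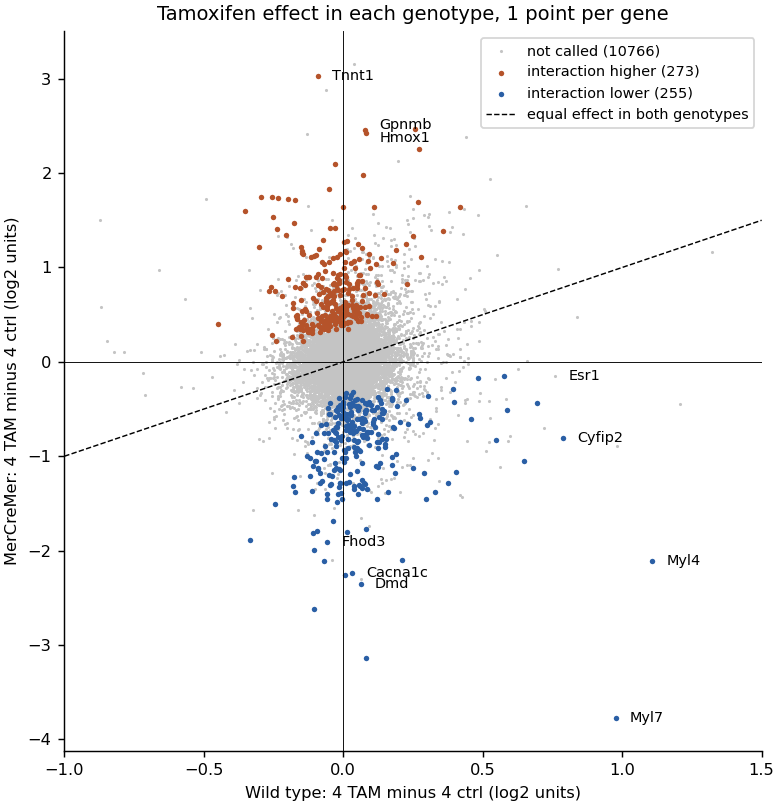
The tamoxifen effect in wild-type mice (horizontal axis, log2 units) is plotted against that in MerCreMer mice (vertical axis, log2 units, on a longer scale), with 1 point for each of the 11294 genes. Called genes are orange where the interaction was higher (273) and blue where it was lower (255), and the dashed line marks an equal effect in both genotypes; most called genes lie near 0 on the horizontal axis, with Myl4 and Myl7 as the furthest exceptions.

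Several of the larger stable decreases were in genes of the cardiomyocyte's calcium and electrical machinery. Cacna1c encodes the pore of the L-type calcium channel, through which calcium enters with each beat. It read 7.52, 7.33 and 7.11 on the MerCreMer 4 TAM arrays, and 9.62, 9.47 and 9.58 on MerCreMer 4 ctrl. Wild type 4 TAM arrays read 9.40, 9.59 and 9.45, and Wild type 4 ctrl ran from 9.35 to 9.59 with a median of 9.47. The 12 arrays without activated Cre thus lay close together, and the 3 with it lay far below them. The interaction was -2.27 ± 0.13 (SE, limma adjusted p = 5.2e-07), a 4.82-fold decrease, and the fits without 1 array gave -2.36 to -2.17. Fgf13, which encodes a modulator of voltage-gated sodium channels, read 5.31, 5.62 and 5.37 on MerCreMer 4 TAM against 7.56, 7.52 and 7.56 on MerCreMer 4 ctrl. In wild-type mice it read 7.62, 7.56 and 7.69 with tamoxifen and 7.52 to 7.78 (median 7.70) without. Its interaction was -2.04 ± 0.11 (adjusted p = 3.6e-07). Camk2d, the main calcium/calmodulin-dependent kinase of the heart, read 8.09, 8.06 and 8.13 on MerCreMer 4 TAM and between 9.20 and 9.38 on the 12 other arrays. Its 3 values lay close together, and the interaction was -1.17 ± 0.10 (adjusted p = 2.8e-05).

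Slc8a1, the sodium-calcium exchanger that removes calcium from the cell, fell less evenly. It read 7.85, 8.26 and 9.03 on MerCreMer 4 TAM, 9.63, 9.95 and 9.69 on MerCreMer 4 ctrl, and at least 9.57 on every wild-type array (interaction -1.54 ± 0.26, adjusted p = 0.0053). Here replicate 1 was the lowest and replicate 3 the highest. Trdn, which encodes triadin of the calcium release complex, read 8.26, 8.17 and 6.90 against at least 9.36 on the other arrays (-1.65 ± 0.32, adjusted p = 0.012). Kcnv2, a modifier subunit of potassium channels, had an interaction of -1.20 ± 0.14 (adjusted p = 0.00045).

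Of the 33 tested members of the list of calcium handling and ion channel genes, 10 were called lower, 1 higher and 22 not called (33.3% called, against 4.68% of all genes). Their median interaction was -0.60, against 0.02 over all genes, and the 3 arrays gave -0.44, -0.34 and -1.13. Without replicate 1, 2 or 3 the list held 13, 18 and 16 lower members, with 1 higher each time. The other lower members were Ryr2, Kcnd2, Cacna2d1 and Kcnq1. Ryr2, the calcium release channel, read 10.78, 10.15 and 9.31 on MerCreMer 4 TAM against 11.38 to 11.48 on the 12 other arrays (-1.38 ± 0.30, adjusted p = 0.019, kept in 11 of 15). Kcnd2, a pore subunit of the transient outward potassium current, had an interaction of -1.89 ± 0.46 (adjusted p = 0.033, kept in 6 of 15). Cacna2d1, an accessory subunit of the calcium channel, had -1.03 (adjusted p = 0.035, kept in 4 of 15), and the potassium channel gene Kcnq1 had -0.60 (0.014, kept in 14 of 15). The 1 higher member was Kcnj5, a subunit of the acetylcholine-gated potassium channel (0.93, adjusted p = 0.038, kept in 5 of 15). Atp2a2, the calcium pump of the sarcoplasmic reticulum, was not called, with an interaction of -0.09 ± 0.09 (adjusted p = 0.56). Pln, its inhibitor phospholamban, was not called either. It read 11.92, 12.26 and 11.24 on MerCreMer 4 TAM against at least 12.56 on all other arrays, and its interaction was -0.76 ± 0.23 (adjusted p = 0.073, 0.026 with group weights).

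**Figure D2:**
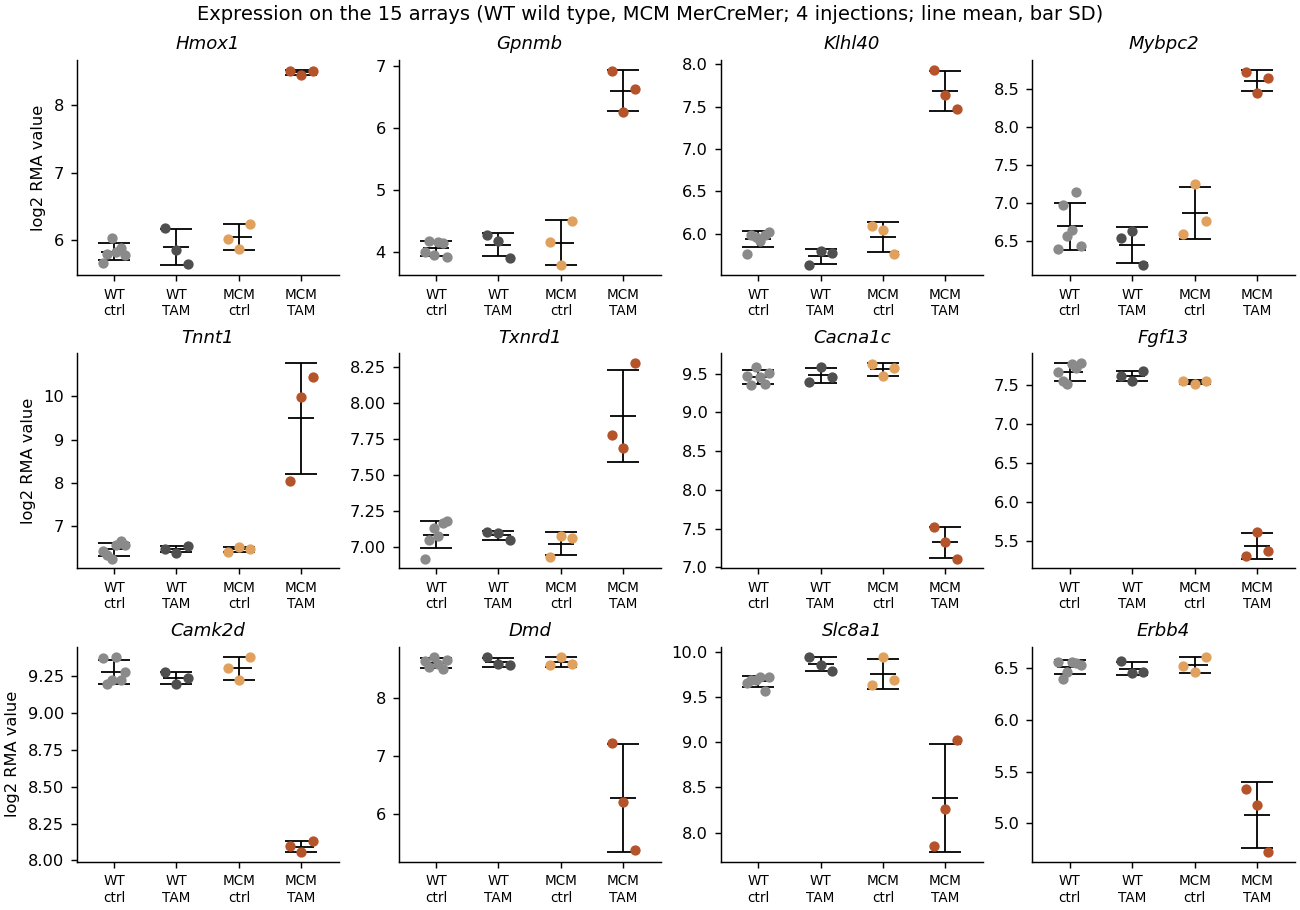
Each panel shows the log2 expression value (vertical axis, each with its own range) of 1 gene on the 15 arrays, by group (WT wild type, MCM MerCreMer, TAM tamoxifen, ctrl control). Points are arrays, the line is the mean and the bar the SD. In all 12 panels the 3 MerCreMer 4 TAM arrays lie outside the range of the other groups, tightly for Hmox1, Fgf13 and Camk2d and widely for Tnnt1 and Dmd.

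Genes that tie the contractile apparatus to the membrane and to neighbouring cells also fell. Fhod3, a formin that organises sarcomeric actin, read 7.36, 7.47 and 7.40 on MerCreMer 4 TAM, where the MerCreMer 4 ctrl arrays all read 9.32 and the wild-type arrays 9.24 to 9.50. This was the smallest adjusted p of the contrast (-1.85 ± 0.09, 1.6e-07), and no fit without 1 array moved it outside -1.88 to -1.80. Dmd, the dystrophin gene, read 7.23, 6.21 and 5.37 against 8.49 to 8.71 on the other 12 arrays (-2.41 ± 0.36, adjusted p = 0.0027). Sgcd, which encodes δ-sarcoglycan of the same membrane complex, read 7.04, 6.88 and 6.76 against at least 7.99 (-1.46 ± 0.15, adjusted p = 0.00015). Lama2, the laminin chain outside the cell to which the complex binds, had an interaction of -0.85 ± 0.12 (adjusted p = 0.0016). These 3 were the only calls among the 15 tested genes of the dystrophin complex and costamere list (median -0.08). Without replicate 3 the count was 4.

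At the intercalated disc, the junction between cardiomyocytes, Cdh2 (N-cadherin) read 8.27, 8.74 and 9.54 against at least 10.10 elsewhere (-1.38 ± 0.27, adjusted p = 0.012). Ctnna3, an α-catenin of the same junction, read 7.17, 6.58 and 5.72 against at least 8.04 (-1.85 ± 0.31, adjusted p = 0.0055). Gja1, the connexin of ventricular gap junctions, had -0.87 ± 0.22 (adjusted p = 0.037, kept in 5 of 15). Xirp1, an actin-binding protein of the disc, went the other way (0.87 ± 0.16, adjusted p = 0.011). The list of 14 disc genes thus held 3 lower, 1 higher and 10 not called (28.6% called), with a median of -0.10. Among 30 sarcomere and Z-disc genes, 4 were lower, 1 higher and 25 not called (16.7% called, median -0.01), and without replicate 2 the lower members were 8. The lower members beside Fhod3 were Nebl (-1.21, adjusted p = 0.021, kept in 11 of 15), Nexn (-0.79, 0.014, kept in 14 of 15, lost without MerCreMer 4 ctrl replicate 1) and Ttn (-0.57, 0.042, kept in 2 of 15). The higher member was Flnc, filamin C, which read 10.59, 10.78 and 11.21 against 9.51 to 10.08 (1.10 ± 0.19, adjusted p = 0.0062). Myh6, whose promoter drives the transgene, was not called. Its interaction was -0.05 ± 0.11 (adjusted p = 0.82), and the sign turned without replicate 3 (0.04).

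Asb15, a muscle subunit of ubiquitin ligases, had the largest decrease of the stable set. It read 6.02, 6.07 and 4.49 against at least 7.96 (-2.52 ± 0.39, adjusted p = 0.003). Its relative Asb14 had -3.21 ± 0.82 (adjusted p = 0.041), but 1 array carried much of this. It read 7.08, 6.87 and 3.50 on the 3 arrays, the interaction was -2.01 without replicate 3, and its call was kept in 3 of 15. Of the stable genes outside the gene lists, 4 that act in neurohormonal and cyclic AMP signalling were chosen after their values were seen. Pde3a, a phosphodiesterase that breaks down cyclic AMP, read 7.76, 7.86 and 7.68 against at least 8.80 (-1.58 ± 0.15, adjusted p = 0.0001). Chrm2, the muscarinic receptor of the heart, had -1.25 ± 0.22 (adjusted p = 0.0083), and Agtr1a, an angiotensin receptor, had -1.31 ± 0.26 (0.015). Akap6, which anchors protein kinase A near the calcium release channel, read 7.44, 8.09 and 8.06 against at least 9.10 (-1.29 ± 0.16, adjusted p = 0.00085). Erbb4, the neuregulin receptor of cardiomyocytes, read 5.33, 5.18 and 4.73 against 6.40 to 6.61 (-1.44 ± 0.16, adjusted p = 0.00031). Angpt1, which signals to endothelial cells through Tie2, had -2.31 ± 0.59 (adjusted p = 0.041, kept in 4 of 15).

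Regulators of cardiac transcription and metabolism followed. Of 24 cardiac transcription factors, 4 were lower, 0 higher and 20 not called (16.7% called, median -0.24). Mef2c, a muscle factor, read 7.40, 7.33 and 7.38 against 7.92 to 8.23 on the other arrays (-0.60 ± 0.09, adjusted p = 0.0029). Thrb, a thyroid hormone receptor, had -0.96 ± 0.19 (adjusted p = 0.012), and Klf15, a factor of cardiac lipid metabolism, had -1.14 ± 0.24 (0.018, kept in 12 of 15). Ppargc1a, the coactivator that promotes mitochondrial biogenesis, read 6.69, 7.58 and 6.14 against at least 7.99 (-1.43 ± 0.34, adjusted p = 0.031, kept in 6 of 15). Esrrg, the oestrogen-related receptor γ that works with this coactivator and binds no oestrogen, read 7.10, 6.95 and 6.52 against at least 7.61 (-1.04 ± 0.15, adjusted p = 0.0024). Ppargc1a and Esrrg were also the only 2 calls among 36 genes of fatty acid uptake and oxidation. That is 5.56% called, against 4.68% of all genes, in a list whose median was -0.59. That median was uneven, at -0.03, -0.32 and -1.23 on the 3 arrays, and was -0.26 without replicate 3. The lower calls numbered 11, 10 and 4 without replicates 1, 2 and 3.

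For oxidative phosphorylation, 0 of 72 tested genes were called by limma, while every one of the 72 had an interaction below 0 (median -0.24). An unadjusted p under 0.05 was reached by 14 of them, 1 was called with group weights, and 4, 6 and 1 without replicates 1, 2 and 3. Much of the size lay on 1 array. The medians were -0.01, -0.07 and -0.59 on replicates 1, 2 and 3, and the list's median was -0.05 without replicate 3. The mean level of these 72 genes was 10.69 to 10.71 on the MerCreMer 4 ctrl arrays. It was 10.53 to 10.58 on Wild type 4 ctrl and 10.52 to 10.59 on Wild type 4 TAM. The difference between the control groups was not tested, and genotype largely coincides with the split of arrays given above. Of 20 genes of the tricarboxylic acid cycle 0 were called by limma or with group weights, 6 had an unadjusted p under 0.05, and all 20 lay below 0 (median -0.31, -0.10 without replicate 3). Glycolysis and glucose uptake held 0 calls of 21 by limma or with group weights and 9 at an unadjusted p under 0.05, around a median of 0.01.

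On the higher side were genes of the oxidative stress response controlled by NRF2, a factor that binds antioxidant response elements. Hmox1, heme oxygenase, read 8.50, 8.43 and 8.50 on MerCreMer 4 TAM against 6.03, 5.87 and 6.25 on MerCreMer 4 ctrl. Wild-type arrays read 6.19, 5.86 and 5.66 with tamoxifen and 5.66 to 6.04 (median 5.82) without. The groups did not overlap, the 3 treated MerCreMer arrays were nearly equal, and the interaction was 2.35 ± 0.17 (adjusted p = 6.1e-06), a 5.09-fold rise. Txnrd1, thioredoxin reductase, read 7.77, 7.68 and 8.27 against 6.92 to 7.18 on the 12 other arrays (0.91 ± 0.16, adjusted p = 0.0067). Gclm, the modifier subunit of the enzyme that limits glutathione synthesis, read 8.26, 8.38 and 8.28 against 7.15 to 7.68 (1.03 ± 0.18, adjusted p = 0.0073, and 0.062 with group weights). Srxn1, sulfiredoxin, had 0.89 ± 0.18 (adjusted p = 0.017, kept in 14 of 15, lost without Wild type 4 TAM replicate 3). Gpx3, Gsr and Gclc, which act in the use, recycling and synthesis of glutathione, had 0.72, 0.54 and 0.41 (adjusted p = 0.025, 0.03 and 0.041, kept in 10, 10 and 4 of 15). In all, 7 of 35 tested members were higher, 0 lower and 28 not called (median 0.29). The 3 arrays gave medians of 0.29, 0.25 and 0.39, and the count was 11, 11 and 9 without replicates 1, 2 and 3 and 4 with group weights.

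The proximal promoters of 2 of these genes are shown because they hold the letters of the element that the list is named for. The sequences are the 250 bases before the transcription start from RefSeq (GRCm38.p6), with the antioxidant response element core TGACNNNGC or its reverse complement in capitals. Gclm lies at chr3:122245307-122245556 and Txnrd1 at chr10:82858956-82859205, both on the + strand.
Gclm: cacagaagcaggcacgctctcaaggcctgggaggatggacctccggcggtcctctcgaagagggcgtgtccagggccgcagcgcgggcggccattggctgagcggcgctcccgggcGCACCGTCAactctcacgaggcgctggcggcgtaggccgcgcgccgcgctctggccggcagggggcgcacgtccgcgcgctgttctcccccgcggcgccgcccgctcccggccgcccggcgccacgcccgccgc
Txnrd1: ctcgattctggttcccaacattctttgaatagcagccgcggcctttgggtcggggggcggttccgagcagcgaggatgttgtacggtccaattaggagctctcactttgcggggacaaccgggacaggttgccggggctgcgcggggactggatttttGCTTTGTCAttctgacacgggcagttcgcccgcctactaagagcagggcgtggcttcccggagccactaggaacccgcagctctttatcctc
In the window of 250 bases before to 50 after the start, 13.99% of the 11598 promoters of 9061 tested genes held this core on either strand, as did 18.35% of the 278 promoters of called higher genes and 13.29% of the 316 of called lower genes. In the stable set the shares were 13.46% of 52 higher and 11.97% of 117 lower promoters. Counted by gene and not by promoter, 28 tested members of the NRF2 list had a promoter and 11 of them the core. Among the 4 called members with a promoter, 3 held it (Gclm, Txnrd1 and Srxn1) and Gpx3 did not. The share by gene over all tested genes was not counted, so these counts cannot be set against the 13.99% of promoters. Among other named genes, the 250 bases of the called lower genes Cacna1c, Klf15, Myl7, Thrb and Fbxo40 held it as well, as did those of the called higher gene Gadd45g. The cyclic AMP response element TGACGTCA, a palindrome, was found in 2.914% of all, 4.676% of the higher and 1.899% of the lower promoters, and in 3.846% and 4.274% of those of the stable set.

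Several muscle genes that are normally low in the adult ventricle rose. Tnnt1, the slow skeletal troponin T, read 8.05, 9.98 and 10.45 on MerCreMer 4 TAM and 6.26 to 6.66 on the 12 other arrays. Its size varied over more than 2 log2 units, and the interaction was 3.12 ± 0.46 (adjusted p = 0.0023), an 8.67-fold rise. Tnnt3, the fast skeletal troponin T, read 7.14, 5.77 and 7.09 against at most 5.44 (1.89 ± 0.36, adjusted p = 0.01). Mybpc2, the fast skeletal myosin-binding protein C, read 8.74, 8.46 and 8.65 against 6.18 to 7.25 (2.0 ± 0.28, adjusted p = 0.0018). Klhl40, a muscle protein that stabilises thin filaments, read 7.93, 7.64 and 7.47 against 5.63 to 6.09 (1.92 ± 0.16, adjusted p = 2.2e-05). Of 8 tested skeletal muscle markers 4 were higher, 0 lower and 4 not called (median 0.47). A further 9 markers on the array, among them Myh1, Myh2, Myh4 and Myod1, did not pass the filter and read at most 4.91 on every array, those of MerCreMer 4 TAM included. The other 2 were Acta1, skeletal α-actin (1.03 ± 0.27, adjusted p = 0.044, kept in 4 of 15), and Tnni2, fast skeletal troponin I (0.52, 0.028, kept in 8 of 15).

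The list of cardiac stress and foetal genes, which shares Tnnt1, Acta1 and Xirp1 with those above, held 6 higher, 0 lower and 15 not called (28.6% called, median 0.90). Its 3 arrays gave 0.20, 0.65 and 1.59, and 12, 8 and 7 members were higher without replicates 1, 2 and 3. Tnfrsf12a, the receptor of the cytokine TWEAK, had 1.65 ± 0.34 (adjusted p = 0.017, kept in 12 of 15). Ankrd23, a stretch-responsive ankyrin repeat protein, had 0.78 (adjusted p = 0.029, kept in 11 of 15), and Rcan1, an inhibitor of calcineurin that its pathway induces, had 1.04 (0.043, kept in 3 of 15). The natriuretic peptide genes, the usual markers of haemodynamic load, were not called. Nppa read 10.52, 11.95 and 12.59 on MerCreMer 4 TAM, 10.81, 10.52 and 10.67 on MerCreMer 4 ctrl and 9.14 to 11.18 on the wild-type arrays (0.86 ± 0.58, adjusted p = 0.41). Nppb read 9.36, 10.94 and 12.11 against 7.78 to 9.89 on the other arrays (2.22 ± 0.71, adjusted p = 0.091). In both, replicate 1 lay within the range of the controls. Myh7, the β-myosin heavy chain, had 1.06 ± 0.48 (adjusted p = 0.21), of which only 0.22 came from the MerCreMer arm and the rest from a wild-type effect of -0.85.

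Acute stress genes formed a further group. Atf3, a stress-induced transcription factor, read 6.53, 6.72 and 7.83 against at most 5.75 (1.97 ± 0.35, adjusted p = 0.0079). Nr4a1, an immediate early nuclear receptor, read 9.02, 8.07 and 8.10 against at most 7.53 (1.78 ± 0.37, adjusted p = 0.017, kept in 14 of 15, lost without MerCreMer 4 ctrl replicate 1). With Maff (1.08, adjusted p = 0.047, kept in 3 of 15) and Jund (0.56, 0.043, kept in 6 of 15) they were the 4 higher of 23 immediate early and AP-1 genes (17.4% called, median 0.33), with 0 lower. Among 28 cytosolic chaperones 3 were higher and 0 lower (10.7% called, median 0.22). They were Hsp90aa1 (0.98 ± 0.23, adjusted p = 0.032, kept in 7 of 15), Hspa1a (0.81, 0.028, kept in 7 of 15) and Bag2 (0.55, 0.018, kept in 12 of 15). Hspa1l, a neighbour of Hspa1a with a near-identical sequence that is outside that list, had 2.05 ± 0.30 (adjusted p = 0.0022), and its probes may also read Hspa1a. Among 31 genes of the unfolded protein and integrated stress response, Atf3, Slc3a2 (1.02, adjusted p = 0.028, kept in 8 of 15) and Slc7a5 (1.13, 0.044, kept in 3 of 15) were higher. Slc3a2 and Slc7a5 are the subunits of an amino acid transporter, and the interaction of Slc7a5 was 0.71 without replicate 3. Vldlr, a lipoprotein receptor on the same list, was lower (-1.09 ± 0.21, adjusted p = 0.012), and 27 were not called (12.9% called).

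The lists of p53 and DNA damage, cell death and cell cycle genes held a share of calls near or below the 4.68% of all genes. Of 39 p53 targets and DNA damage genes, 1 was higher (Gadd45g) and 1 lower (Perp), and the median was 0.04 (5.13% called). Gadd45g read 7.13, 7.30 and 9.25 against at most 6.95, an interaction of 1.95 ± 0.50 (adjusted p = 0.042, kept in 3 of 15) that was 1.24 without replicate 3. Perp had -0.81 ± 0.14 (adjusted p = 0.0081, kept in 15 of 15 but 0.055 with group weights). Among 27 cell death genes limma called 0, as did group weights, and 4 had an unadjusted p under 0.05 (median 0.07). Among 17 cell cycle genes the counts were likewise 0, 0 and 4 (median 0.37). The cell cycle median was 0.08 without replicate 3. Without replicate 2, 6 of the p53 and DNA damage genes were higher and 2 lower. The cell death genes then held 3 higher and 0 lower, and the cell cycle genes 4 higher and 1 lower. Without replicate 1 or 3, each of these lists held at most 2 higher and 2 lower. Of the 33 genes of the proteasome, ubiquitin ligase and autophagy list 3 were higher, 3 lower and 27 not called. This was 18.2% called, against 4.68% of all genes (median 0.08). The proteasome subunit Psmd2 read 10.28, 10.25 and 10.43 against 9.85 to 9.98 (0.45 ± 0.09, adjusted p = 0.014, 0.059 with group weights). Psmd1 (0.39, adjusted p = 0.02, kept in 10 of 15) and Psmc2 (0.37, 0.04, kept in 4 of 15) were the other higher members. The lower members were Asb14, Asb15 and Fbxo40, an ubiquitin ligase subunit of muscle (-1.11 ± 0.23, adjusted p = 0.018, kept in 12 of 15).

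**Figure D3:**
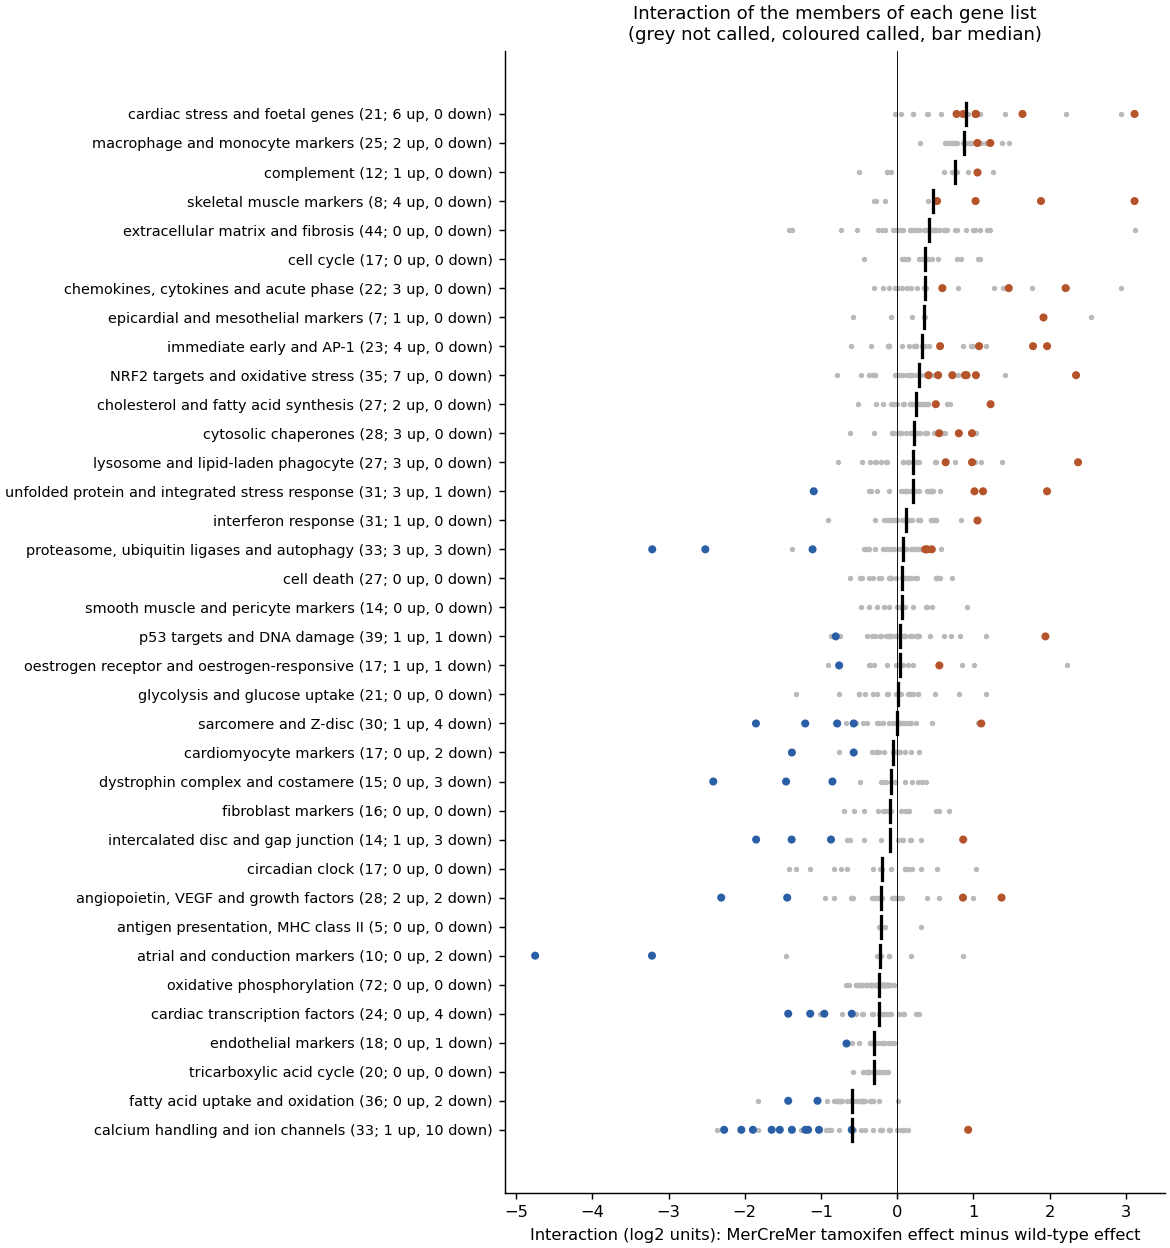
Each row is a gene list with at least 5 tested members, ordered by its median interaction (black bar, log2 units on the horizontal axis), with the number tested and called in brackets. Grey points are members not called and coloured points are called (orange higher, blue lower). Calcium handling and ion channels lies at the foot with 10 lower and 1 higher, and cardiac stress and foetal genes at the head with 6 higher and 0 lower.

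Gpnmb, a glycoprotein of lysosome-rich and lipid-laden phagocytes, was higher on all 3 arrays. It read 6.92, 6.25 and 6.63 on MerCreMer 4 TAM against 3.78 to 4.50 on the 12 other arrays (2.37 ± 0.23, adjusted p = 0.00014). It passed the filter of log2 5 on 3 arrays only through the MerCreMer 4 TAM arrays, so that its fold rests on control readings below that level. Ccl12, a chemokine that attracts monocytes, read 6.74, 6.22 and 8.06 against at most 5.51 (2.21 ± 0.46, adjusted p = 0.018, kept in 12 of 15), and Ccl6 had 1.47 ± 0.35 (0.032, kept in 6 of 15). With Stat3, the factor that transmits interleukin signals (0.59, adjusted p = 0.028, kept in 10 of 15), they were the 3 higher of 22 chemokine, cytokine and acute phase genes (13.6% called, median 0.37). Of 31 interferon response genes 1 was higher (3.23% called, against 4.68% of all genes), Oas1a (1.05, adjusted p = 0.033, kept in 6 of 15).

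Macrophage and monocyte markers moved beside these genes. All 25 tested had an interaction above 0 (median 0.88). On the 3 MerCreMer 4 TAM arrays 13 of them lay above all 12 other arrays, as did 10.1% of all genes tested. Of them 2 were called, Cd14 (1.22, adjusted p = 0.044, kept in 4 of 15) and C1qc (1.05, 0.038, kept in 4 of 15). This was 8.0%, against 4.68% of all genes. Cd14 also passed the filter only through the 3 MerCreMer 4 TAM arrays. The 3 arrays gave medians of 0.68, 0.17 and 1.78, and 3, 22 and 5 of the 25 were called without replicates 1, 2 and 3. The mean level of the list was 6.44 to 7.99 on the MerCreMer 4 TAM arrays, 6.11 to 6.13 on MerCreMer 4 ctrl and 6.10 to 6.36 on wild-type arrays. Cd68 read 7.57, 7.16 and 8.91 against at most 6.73 and was not called (1.37 ± 0.39, adjusted p = 0.062). Whether more macrophages or more RNA per macrophage produced such values cannot be told apart in whole tissue, and the same holds for every cell type below. On replicate 2 the macrophage median was 0.17, and the same quantity was 2.04 for Gpnmb and 2.32 for Hmox1. The part of these cells in the rises of Gpnmb, Ccl12 and Hmox1 was not tested, and values of 1 array cannot decide it.

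Of 17 markers of the cardiomyocyte itself, Ryr2 and Ttn were called lower and 15 were not called (11.8% called, against 4.68% of all genes). The median was -0.05, and it was 0.04 without replicate 3. The 3 arrays gave medians of 0.03, 0.08 and -0.23, so that it lay below 0 only on replicate 3. The mean level of the list was lower on each MerCreMer 4 TAM array (11.43 to 11.88) than on every other array (11.90 to 11.96). Its defining genes were bright on every array, with Myh6 between 12.38 and 12.73 and Tnnt2 between 12.30 and 12.53, as fits the labelled tissue. Of 16 fibroblast markers 0 were called by limma or with group weights, and 1 had an unadjusted p under 0.05 (median -0.09). Of 44 extracellular matrix genes limma called 0, where 10 had an unadjusted p under 0.05, and 1 was called with group weights. Without replicate 1 there were 3 higher and 1 lower, without replicate 2 there were 7 and 2, and without replicate 3 there were 2 and 0. Their median of 0.42 became -0.10 without replicate 3. Col1a1 read 9.33, 9.19 and 11.20, and Col3a1 9.11, 8.69 and 10.77, where the highest of the 12 other arrays were 9.38 and 8.89. The tissue inhibitor of metalloproteinases Timp1 read 6.45, 7.63 and 11.51 against at most 5.59 and was not called (3.12 ± 1.07, adjusted p = 0.11). Its interaction was as large as that of Tnnt1, the largest called on the higher side. All 18 endothelial markers lay below 0 (median -0.30, -0.17 without replicate 3). Of them 1 was called (5.56%, against 4.68% of all genes), Emcn (-0.67, adjusted p = 0.05 after rounding, kept in 3 of 15). Without replicate 1 there were 5 lower. Smooth muscle and pericyte markers held 0 calls of 14 by limma or with group weights, and 1 had an unadjusted p under 0.05. Krt18, an epithelial and mesothelial keratin that injured cardiomyocytes can also make, read 5.64, 7.07 and 7.42 against at most 4.97 (1.91 ± 0.36, adjusted p = 0.01), so that it too passed the filter only through these 3 arrays. Of the listed T cell, B cell, neutrophil and mast cell markers, 1 each passed the filter of log2 5 on 3 arrays, and limma called none of these. Lcn2, the single tested neutrophil marker, read 8.22, 5.02 and 8.18 against at most 5.34 and was not called (2.24 ± 0.76, adjusted p = 0.11), but it was with group weights (0.032), with the batch block and without replicate 2 (3.35).

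The wild-type response also entered the contrast. It was opposite in sign to the interaction in 65.7% of the 528 called genes and 57.5% of all genes, which its subtraction favours. A wild-type effect of at least 0.5 in size was found in 8 of the 528 and in 44 of all 11294 genes. All 8 were on the lower side, so that part of their interaction came from a wild-type value above its control. These were 4833420G17Rik, Cdh11, Cpxm2, Cyfip2, Myl4, Myl7, Npr3 and Rgs2. Cyfip2, a regulator of actin assembly, was the only one in the stable set. It read 8.67, 8.62 and 7.94 on MerCreMer 4 TAM, 9.43, 9.48 and 8.72 on MerCreMer 4 ctrl, 9.61, 9.52 and 9.50 on Wild type 4 TAM and 8.67 to 8.97 on Wild type 4 ctrl. The effect was -0.80 in MerCreMer and 0.79 in wild-type mice, and the interaction of -1.59 ± 0.25 (adjusted p = 0.0031) held both. In Npr3, the clearance receptor of natriuretic peptides, the MerCreMer effect was -0.44 and the wild-type effect 0.70 (interaction -1.13 ± 0.29, adjusted p = 0.043, kept in 4 of 15).

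The atrial light chains Myl7 and Myl4 had the largest negative interactions of all called genes, and both calls were lost with group weights. Myl7 read 4.07, 4.72 and 5.04 on MerCreMer 4 TAM, 8.60, 8.11 and 8.43 on MerCreMer 4 ctrl, and 7.82, 5.59 and 4.68 on Wild type 4 TAM. On Wild type 4 ctrl it ran from 4.22 to 7.02 with a median of 4.36. The MerCreMer 4 ctrl arrays thus lay above all others, and of the treated MerCreMer arrays 2 lay within the range of Wild type 4 ctrl and 1 below it. The interaction of -4.75 ± 1.05 (adjusted p = 0.022, kept in 13 of 15, lost without MerCreMer 4 ctrl replicate 1 or 3) had an adjusted p of 0.17 with group weights. The 3 arrays of MerCreMer mice with 1 control injection read 4.03, 4.05 and 8.93. Myl4 followed the same pattern, with 6.73, 7.29 and 7.32 on MerCreMer 4 TAM, 9.45, 8.99 and 9.22 on MerCreMer 4 ctrl and 5.63 to 8.81 on wild-type arrays (-3.22 ± 0.77, adjusted p = 0.031, kept in 10 of 15). Of 10 tested atrial and conduction markers these 2 were called lower and 8 not called, and 8 of the 10 had an interaction below 0 (median -0.22). Mybphl, a myosin-binding protein found mainly in atria that is not on that list, was also highest on MerCreMer 4 ctrl, at 5.38, 5.35 and 5.08, against 3.83, 4.07 and 4.18 on MerCreMer 4 TAM and 4.07 to 4.75 on wild-type arrays (-1.31 ± 0.21, adjusted p = 0.0042). It reached log2 5 only on the MerCreMer 4 ctrl arrays of the 15. The listed atrial markers Sln and Bmp10 did not pass the filter, with at most 4.55 and 2.85. The part of atrial tissue in these values was not tested.

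The genotypes could also differ before tamoxifen. Between MerCreMer 4 ctrl and Wild type 4 ctrl limma called 48 genes (0.425%), 39 higher (0.345%) and 9 lower (0.0797%) in MerCreMer. With group weights 446 were called, with the inferred batch as a block 8, and with 1 array left out between 7 (without MerCreMer 4 ctrl replicate 1) and 391 (without MerCreMer 4 TAM replicate 3). The inferred batch largely coincides with genotype, as all wild-type arrays and 2 of the 6 MerCreMer arrays share its lower level. The comparison also shares its arrays with the interaction, so that a chance deviation of the MerCreMer controls moves the 2 in opposite directions. Of the genes tested 8 were called in both (0.0708%). Mybphl had a baseline difference of 0.94 (adjusted p = 0.011) beside the interaction given above. The uncharacterised gene Gm4971 had -1.06 (adjusted p = 0.0018) and 1.02 ± 0.18 (0.0084, and 0.081 with group weights), and Prkg1, a kinase of cyclic GMP signalling, had 0.52 (0.035) and -0.71 ± 0.14 (0.013, and 0.08 with group weights). The others were Fxyd6, Kpna2, Mrpl34, Myl4 and Rftn1. Hmox1, Gpnmb, Cacna1c, Fgf13, Camk2d and Fhod3 had baseline differences between -0.15 and 0.23, none of them called.

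Esr1, the oestrogen receptor gene, checked the genotype labels, since the transgene holds receptor domains that its probes may read. It was 7.68, 7.39 and 7.43 on MerCreMer 4 ctrl and 7.24, 7.62 and 7.20 on MerCreMer 4 TAM. On Wild type 4 ctrl it was 5.47 to 6.08, and on Wild type 4 TAM 6.80, 6.50 and 6.12. Every MerCreMer array thus lay above every wild-type array, with a baseline difference of 1.79 (adjusted p = 0.00019). The tamoxifen effect was 0.76 in wild-type and -0.15 in MerCreMer mice, neither of them called, and the interaction of -0.91 ± 0.25 was not called (adjusted p = 0.052). Of 17 oestrogen receptor and oestrogen-responsive genes, Rara was higher (0.55, adjusted p = 0.048, kept in 3 of 15) and Stc2 lower (-0.76, 0.016, kept in 14 of 15, lost without Wild type 4 TAM replicate 1), with 15 not called (11.8% called). The wild-type arm called none of them.

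The 6 arrays of MerCreMer mice with 1 injection share no array with the contrast. There limma called 1 gene (0.00885%), Ptprn2, which was not called in the interaction, and 372 genes (3.29%) had an unadjusted p under 0.05. With only these 6 arrays in the fit 2 genes were called. Of the 273 genes called higher after 4 injections, 180 (65.9%) had a positive effect after 1 injection, and in 33 (12.1%) the 3 tamoxifen arrays lay above the 3 controls. Over all genes 6.9% did so. Of the 255 genes called lower, 64 (25.1%) had a negative effect and in 2 (0.784%) the arrays lay below the controls, against 3.48% of all genes. Of these lower genes 191 (74.9%) had a positive value, as did 57.4% of all genes. The effects were small in both directions, with medians of 0.04 among the higher and 0.06 among the lower genes. Cacna1c read 9.54, 9.67 and 9.68 with 1 tamoxifen injection and 9.40, 9.53 and 9.47 with 1 control injection. Hmox1 read 6.23, 6.06 and 6.03 against 6.37, 5.25 and 6.06, and Gpnmb 4.08, 3.99 and 4.2 against 3.81, 3.78 and 4.14, so that these groups overlapped. Klhl40 read 6.04, 5.97 and 6.09 against 5.75, 5.93 and 5.95, a difference of 0.16, where 4 injections gave an interaction of 1.92.

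**Figure D4:**
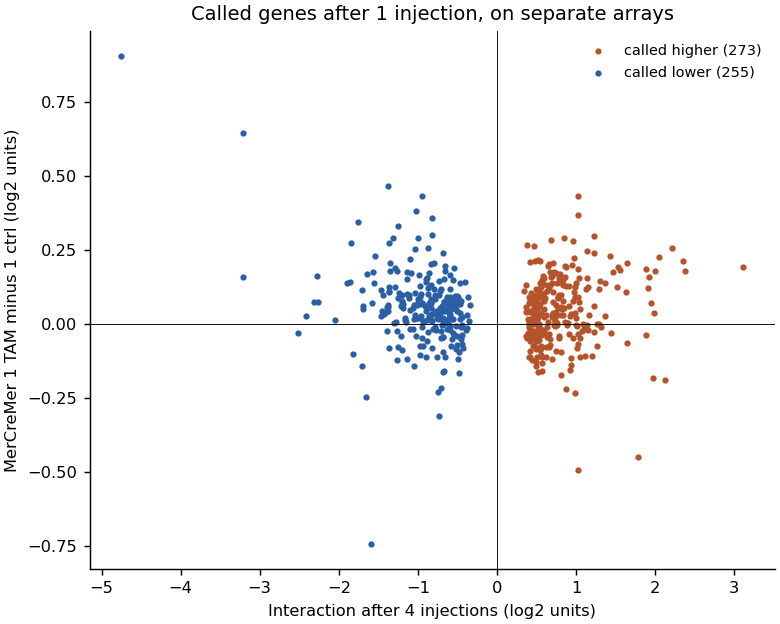
For the 528 called genes the interaction after 4 injections (horizontal axis, log2 units) is plotted against the effect of 1 tamoxifen injection in MerCreMer mice on separate arrays (vertical axis, log2 units, on a shorter scale). Orange genes were called higher (273) and blue lower (255); after 1 injection both clouds lie close to 0, and 191 of the 255 blue points have a positive value.

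Gene length, which no criterion used, differed between the lower and the higher genes, a description without a test. Lengths are those of the whole gene, introns included, in the RefSeq table of GRCm38.p6. The median length was 119 kb for the genes called lower, 21.7 kb for those called higher and 23.1 kb for all genes tested, and it was 208 kb for the 84 stable lower genes. Under 80 kb, between 0.507% and 1.63% of the genes in each length class were called lower. The share was 3.52% from 80 to 160 kb, 12.03% from 160 to 320 kb and 20.2% (50 of 247) over 320 kb. Of those 247 longest genes 1 was called higher (0.405%). Without replicate 3 their share of lower genes was 24.7%, and with group weights 16.6%. The shift was present on each array, as the median over the 247 genes was -0.25, -0.25 and -0.41 on replicates 1, 2 and 3. It was 0.04 in the wild-type arm and 0.04 after 1 injection.

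Many of the genes named above belong to this class. Dmd spans 2390 kb, Ctnna3 1574 kb, Erbb4 1077 kb, Sgcd 1018 kb, Lama2 636 kb, Cacna1c 610 kb, Esrrg 606 kb and Ryr2 554 kb. Of the 247 genes over 320 kb, 196 were not called. Called genes were spread over the chromosomes, from 3.21% of the tested genes on chromosome 4 to 7.46% on chromosome 3.

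**Figure D5:**
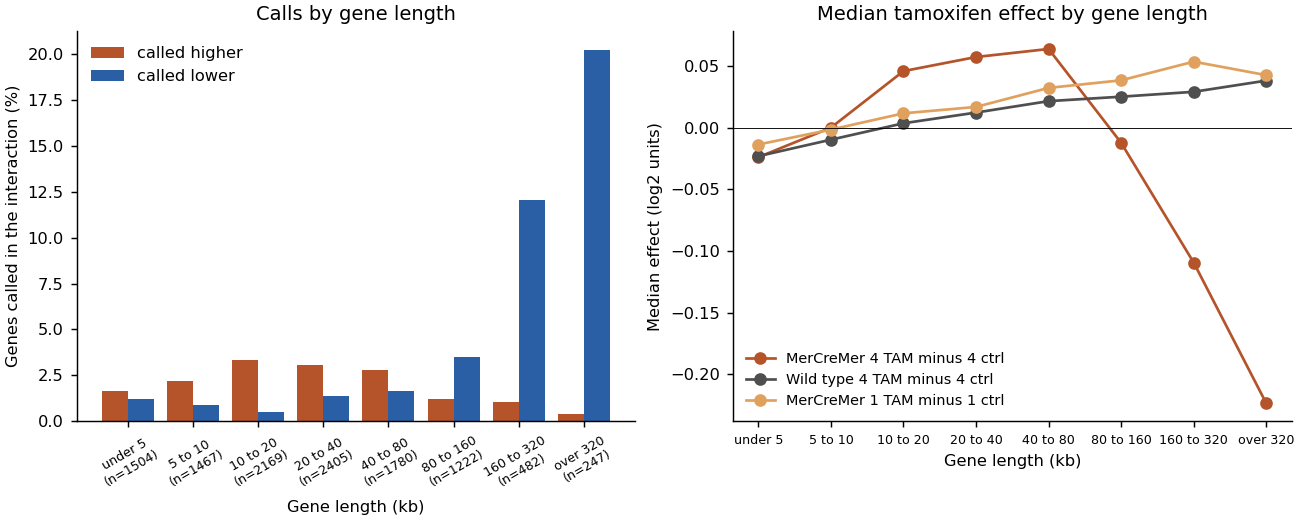
The left panel gives the percentage of genes called higher (orange) and lower (blue) in the interaction for 8 classes of gene length (kb, with the number of genes). The right panel gives the median tamoxifen effect (log2 units) in the same classes for the MerCreMer arm, the wild-type arm and 1 injection; the lower calls climb from 3.52% at 80 to 160 kb to 20.2% over 320 kb, and over 80 kb the MerCreMer medians lie below 0 and the others above it.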

How the data were processed

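Per the submitters' processing notes and the labels, RNA of each left ventricle was hybridised to 1 whole-transcript array, and the authors summarised the probes by RMA to the deposited log2 values (no version, build or scan date is given in the sources used here). Of 34760 probe sets, 21640 named 1 gene, 1321 several and 11799 none. Per gene, the probe set with the highest mean was used. The 11294 genes with log2 of at least 5 on at least 3 of the 15 arrays were fitted with limma 3.58.1 in R 4.3.3 (4 group means and sex, empirical Bayes, 10 residual degrees of freedom), with Benjamini-Hochberg adjustment over all of them and a threshold of 0.05. The fit was run on simulated data with the same spread in every group. That run cannot show how the wider spread of MerCreMer 4 TAM affects the calls. Array number limits the precision. Interactions of single arrays were not adjusted for sex.

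Genes were named by rule. It took the 12 largest interactions each way among called genes whose MerCreMer 4 TAM arrays lay outside all others, up to 3 called members of each list by adjusted p (otherwise the member with the smallest p), genes also called at baseline, and a preset panel. Its parts for genes called in the wild-type arm found none. Genes outside it were chosen after their values were seen. The members and lists were chosen with earlier results of these data known. Replicate numbers were not used as pairs in the main fit. With group means removed, 7 of 18 correlations between same-numbered arrays exceeded 0.1. The numbers partly followed sex, as replicate 1 was male in every group. An array batch inferred from 13 bright probe sets without a gene was tried as a block, after seeing the data. Promoters and gene lengths are from RefSeq (GRCm38.p6), used by gene symbol.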

Additional observations from a re-analysis of the deposited data

Results flagged for a closer look

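The tamoxifen effect differed between the genotypes, by the interaction term of limma, in 528 genes, which the report describes. Within the 6 Wild type 4 ctrl arrays, the genes of the naming rule (77 called, 28 not called) were examined by Dixon's criterion. Chance alone meets it in about 1 in 20 groups. In 4 of these genes 1 array stood apart, a share no larger than that. The lowest array read 10.08 for Nexn, where the next read 10.3, and 8.153 for Dbp, where the next read 9.05. The highest read 7.685 for Gclm, where the next read 7.376, and 6.348 for Stmn2, where the next read 5.696.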

How the results depend on the processing

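The interaction count of 528 became 911 with all 21 arrays in the fit, 66 in female arrays alone, 289 with group weights, 62 with the replicate block in place of sex, 1239 within the larger inferred batch of MerCreMer arrays (2 of each MerCreMer group, with all wild-type arrays), and 223 (without Wild type 4 TAM replicate 3) to 1768 (without MerCreMer 4 TAM replicate 2) with 1 array left out. The MerCreMer arm (1953) gave 564 in females, 455 with group weights, 1258 with array weights, 823 with the replicate block and 941 to 3395 with 1 array left out. The wild-type arm (0) gave 2 in females, 5 with group weights, 6 with array weights and 0 to 1 with 1 array left out. The baseline comparison (48) gave 78 with all 21 arrays, 446 with group weights, 911 with array weights, 9 in females, 2 with the replicate block, 8 with the batch block and 7 to 391 with 1 array left out, and 1 injection (1) gave 2 with its 6 arrays alone. For each of these the cause was not tested. Without the filter on dim genes 354 interactions were called (165 higher, 189 lower), and after a second quantile normalisation 555 (238 higher, 317 lower). Of the 77 called genes of the naming rule 0 reversed in any listed setting, 37 were called in every fit without 1 array, 52 with group weights, 19 in females, 14 with the replicate block and 71 without MerCreMer 4 TAM replicate 3. The labels do not name same-numbered arrays as pairs, and the numbers partly followed sex. Reversals occurred in 3 genes that were not called. Myh6 gave 0.011 in females, 0.10 with array weights and -0.16 to 0.037 with 1 array left out, turning positive without MerCreMer 4 TAM replicate 3. Without that replicate the collagens turned negative too. Col1a1 gave -0.054 with array weights and -0.13 to 0.97 with 1 array left out, and Col3a1 gave -0.24 and -0.22 to 0.93. Of the 24 list medians of at least 0.2 in size, 5 changed sign in some setting. Dim probe sets near the filter limit what the arrays can show for rarer cell types.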
